A study of Mus musculus with 19 samples.

Results

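Amphetamine was compared with saline in the striatum of mice whose D2 dopamine receptor gene, Drd2, had been targeted in the medial prefrontal cortex (PFC_D2R-KO mice, KO mice below). Every gene count library labelled amphetamine PFC_D2R-KO (n = 4 mice) was set against every one labelled saline PFC_D2R-KO (n = 5 mice), which makes 9 of the 19 striatal libraries of the study, over the 21513 of 49592 genes with enough counts to test. All were male mice aged 4 months of the D2RCre_floxCas9-EGFP line, in which Cre made under control of the D2 receptor gene switches on the nuclease Cas9 together with EGFP. Both groups had received AAV5 with a D2R-sgRNA, the guide that leads Cas9 to Drd2, by injection into the prefrontal cortex, so the targeted gene is the same in amphetamine and saline mice. The amphetamine KO mice had saline injections on 5 days and then 3 mg/kg of amphetamine on day 9, and were killed 90 min later. The saline KO mice received vehicle throughout, with no killing time stated separately for them. All mice of the study had a motor recording of 30 min. The control mice of the study, 5 given amphetamine and 5 given saline, are of the same line and received AAV5 syn-mCherry in place of the guide. They are used here for the shared estimate of spread and for the test of whether the responses differ between genotypes. The design asks how prefrontal loss of D2 receptors bears on the striatal response to the drug. The virus was placed in cortex and the tissue sequenced was striatum, so the edited prefrontal cells were by design not in the tissue sampled. Whether some cortical cells came with the tissue was not tested.

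Amphetamine enters dopamine terminals and releases dopamine into the striatum, where projection neurons of the direct pathway carry D1 receptors and those of the indirect pathway carry D2 receptors. Neuronal activity switches on immediate early genes, and dopamine also acts on peptide precursors and on clock genes of these cells. Molecular chaperones, which lead the results below, fold new proteins and refold damaged ones. Hsp70 proteins bind unfolded chains with the help of J-domain partners, and Hsp90 proteins finish the folding of kinases and receptors with their co-chaperones. The TRiC ring folds actin and tubulin, and a separate set works in the endoplasmic reticulum on proteins bound for membranes and secretion. Heat shock factor 1 is known to act on cytosolic and mitochondrial chaperone genes through heat shock elements, and the factors of the unfolded protein response on endoplasmic reticulum chaperone genes through the ER stress element.

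Promoter sequences are shown for 6 genes on which the results below turn, because their upstream bases hold the motif known for their gene class. Each is the 250 bases before the annotated start (RefSeq, GRCm38.p6), 5′ to 3′ on the strand of the gene, with the motif in capitals. The ER stress element was searched as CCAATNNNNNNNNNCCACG, the heat shock element as GAANNTTCNNGAA or TTCNNGAANNTTC, the D-box of clock genes as TTATGTAA and the E-box as CACGTG, on both strands, and overlapping matches of the 2 heat shock forms were joined.
Hsp90b1 (chr10:86705445-86705694, minus strand): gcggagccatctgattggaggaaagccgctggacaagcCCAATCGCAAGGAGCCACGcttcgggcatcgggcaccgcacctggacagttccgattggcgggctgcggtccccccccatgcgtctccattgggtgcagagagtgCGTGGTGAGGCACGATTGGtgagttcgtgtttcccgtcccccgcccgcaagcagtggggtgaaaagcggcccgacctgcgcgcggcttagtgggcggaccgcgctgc
Calr (chr8:84846932-84847181, minus strand): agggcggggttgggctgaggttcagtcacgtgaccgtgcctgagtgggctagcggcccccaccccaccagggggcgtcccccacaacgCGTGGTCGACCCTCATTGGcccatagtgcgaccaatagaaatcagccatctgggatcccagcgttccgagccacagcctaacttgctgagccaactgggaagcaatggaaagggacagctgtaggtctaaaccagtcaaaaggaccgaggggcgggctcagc
Hspa5 (chr2:34771840-34772089, plus strand): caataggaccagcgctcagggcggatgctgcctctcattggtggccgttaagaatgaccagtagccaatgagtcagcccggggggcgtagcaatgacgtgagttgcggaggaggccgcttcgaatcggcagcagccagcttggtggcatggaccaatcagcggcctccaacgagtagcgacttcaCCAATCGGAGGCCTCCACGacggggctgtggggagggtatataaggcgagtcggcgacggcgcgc
Hspe1 (chr1:55087898-55088147, plus strand): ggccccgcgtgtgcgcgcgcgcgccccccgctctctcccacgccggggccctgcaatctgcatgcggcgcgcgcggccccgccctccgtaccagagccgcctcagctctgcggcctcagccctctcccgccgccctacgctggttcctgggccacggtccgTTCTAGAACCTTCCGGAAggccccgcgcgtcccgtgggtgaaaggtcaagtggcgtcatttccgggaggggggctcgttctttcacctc
Per3 (chr4:151044666-151044915, minus strand): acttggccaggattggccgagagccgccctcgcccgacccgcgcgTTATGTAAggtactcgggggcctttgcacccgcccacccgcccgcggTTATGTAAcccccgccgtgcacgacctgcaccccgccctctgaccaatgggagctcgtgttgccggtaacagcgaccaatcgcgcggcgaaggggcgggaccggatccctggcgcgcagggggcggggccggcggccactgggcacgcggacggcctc
Ciart (chr3:95882229-95882478, minus strand): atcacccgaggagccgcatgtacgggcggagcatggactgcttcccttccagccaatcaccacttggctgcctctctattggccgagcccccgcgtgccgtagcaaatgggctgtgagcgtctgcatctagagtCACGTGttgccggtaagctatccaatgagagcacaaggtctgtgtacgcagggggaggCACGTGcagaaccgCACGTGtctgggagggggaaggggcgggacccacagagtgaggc
The ER stress element lies in 0.113% of the 32851 mouse promoter windows of this length, the heat shock element in 0.466%, the D-box in 0.819%, the E-box in 6.02% and the cyclic AMP response element, searched as TGACGTCA, in 1.55%. Of 27 chaperone and oxidoreductase genes of the endoplasmic reticulum, 23 had a promoter window and 8 of these held the ER stress element. They were Hsp90b1 with 2 copies (212 and 107 bases before the start), Calr (162 bases), Hspa5 (65 bases), Canx, Creld2, Dnajc3, Ero1b and Pdia6. Hspe1 and Hspd1, which are read in opposite directions from a shared promoter, held the heat shock element, as did Dnajb6, while the 12 Hsp90 machinery genes and the 7 TRiC genes with a window had no match to it. Per3 held 2 D-boxes (205 and 158 bases) and Ciart 3 E-boxes (116, 58 and 44 bases). A match is a match of letters in this window and was not tested as a binding site.

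Drd2, the targeted gene, had 113, 73.5, 34.1 and 121 CPM in amphetamine KO mice, against 96.9, 111, 116, 76.9 and 126 CPM in saline KO mice. Its striatal level does not check a deletion made in cortex, and the groups overlapped (log2 fold change -0.30 ± 0.272 (SE), adjusted p = 0.659). Totals ran from 72759747 to 83149920 counts in amphetamine KO libraries and from 75449097 to 85536346 in saline KO libraries, and no pair of libraries was a copy of another. Levels are given as CPM, counts relative to the TMM-scaled library total, always in the order of mouse 1 to 4 for amphetamine and 1 to 5 for saline.

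Some KO libraries stood apart from the rest of their group, and several of the results that rest on them are given with and without them. Genes of striatal projection neurons (14 markers, all detected) summed to 5470, 3508, 2574 and 6101 CPM in amphetamine KO mice, against 5207, 5464, 5678, 3520 and 5742 CPM in saline KO mice, lowest in amphetamine mice 3 and 2 and in saline mouse 4. Cortical projection neuron markers (12, all detected) summed to 873, 396, 1861 and 1299 CPM in amphetamine KO mice, against 583, 621, 639, 601 and 969 CPM in saline KO mice. Amphetamine mouse 3 had the least striatal and the most cortical marker RNA. Choroid plexus markers (10, all detected) summed to 59.6, 722, 52.4 and 51.8 CPM in amphetamine KO mice, against 80.7, 70.0, 71.4, 91.3 and 65.5 CPM in saline KO mice. Ttr, the transthyretin carrier made by that tissue, was at 595.5 CPM in amphetamine mouse 2 and 1.34 to 3.74 CPM in the others. Ribosomal protein genes (81) summed to 16560, 18800, 16730 and 15890 CPM in amphetamine KO mice, against 18180, 17890, 28610, 16620 and 16590 CPM in saline KO mice, highest in saline mouse 3. Saline mouse 1 had the highest level of Fkbp5, a glucocorticoid-induced co-chaperone, with 113 CPM against 42.7 to 56.7 CPM in the other 8 KO mice.

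**Figure D1:**
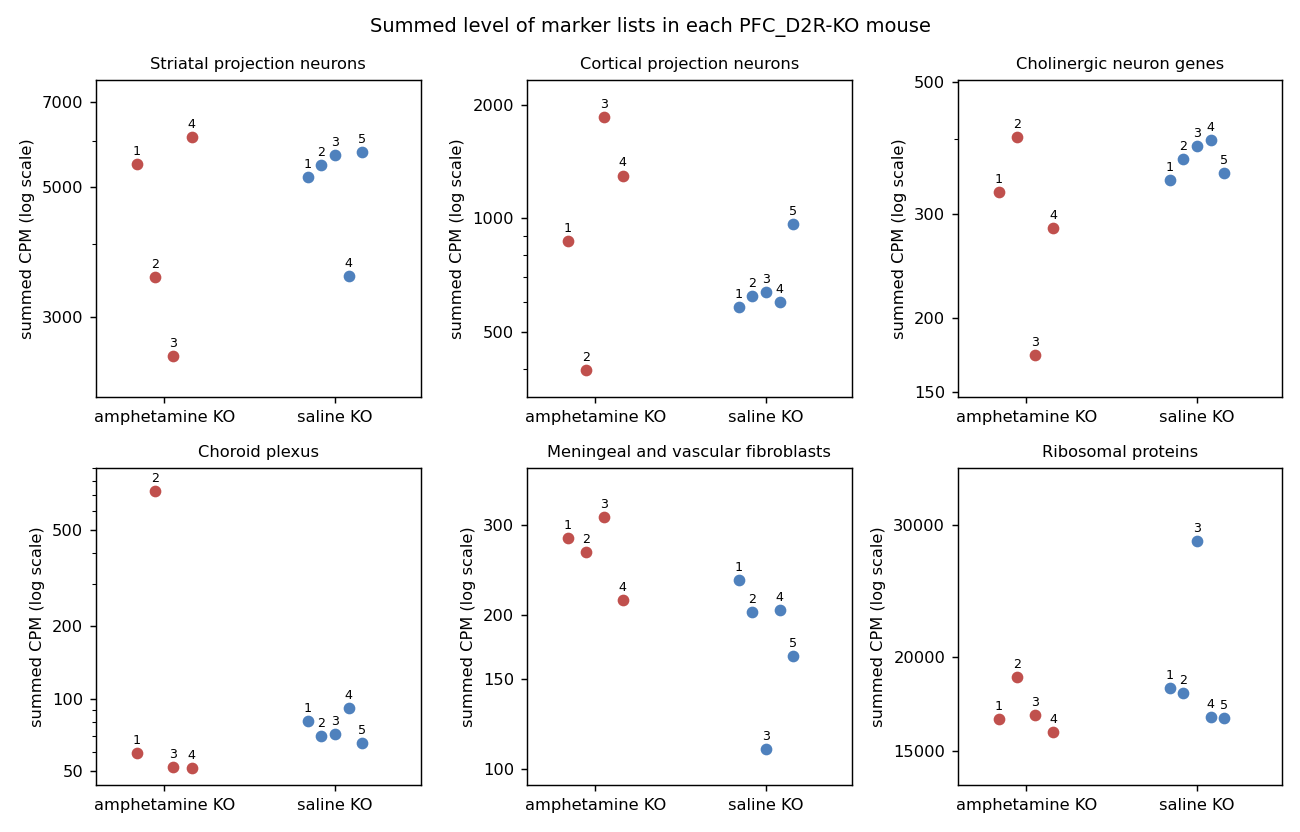
Summed CPM of 6 gene lists (vertical axis, log scale) in each amphetamine KO mouse (red, left) and saline KO mouse (blue, right), numbered by mouse. Amphetamine mouse 2 stands alone on choroid plexus genes (722 CPM), amphetamine mouse 3 is lowest on striatal and cholinergic and highest on cortical genes, and saline mouse 3 is highest on ribosomal (28610 CPM) and lowest on fibroblast genes (109 CPM).

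Across all genes, a single one passed the test. Col6a2 (ENSMUSG00000020241.14, GRCm39 chromosome 10, 76431596 to 76459464), which encodes a chain of collagen VI in the extracellular matrix, had 14.8, 14.3, 18.1 and 15.1 CPM in amphetamine KO mice, against 9.39, 10.9, 7.38, 8.60 and 10.4 CPM in saline KO mice. Every amphetamine value lay above every saline value. Col6a2 rose with a log2 fold change of 0.74 ± 0.107 (SE) and an adjusted p of 0.0217 (edgeR quasi-likelihood test, Benjamini-Hochberg adjustment), which makes 1 gene called of 21513 (0.00465%), higher after amphetamine, and 0 called lower. The call ended without amphetamine mouse 1, 3 or 4 or saline mouse 1 or 4 (adjusted p 0.074 to 0.119), with only the 9 KO libraries in the fit (0.342) and without amphetamine mice 2 and 3 and saline mouse 3 (0.224). In the last of these settings 1 gene was called, higher after amphetamine, but it was not Col6a2. The log2 fold change of Col6a2 ran from 0.61 to 0.81 over all alternatives. Below this threshold, 1310 genes (6.09%) had an unadjusted p under 0.05 and were higher and 1290 (6%) were lower; 478 genes (2.22%) had every amphetamine mouse above every saline mouse and 612 (2.84%) had every one below. The median log2 fold change over all genes was -0.01, with the 5th and 95th percentiles at -0.45 and 0.61. With DESeq2 on the same counts 98 genes passed, 52 higher and 46 lower, and 15 of these were chaperones of the lists described next. The tissue was bulk striatum, in which fewer cells of a type and less RNA per cell cannot be told apart.

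Chaperone transcripts were prominent among the genes of smallest p. Of 97 genes on 6 chaperone lists, all of which were tested, 7 were among the 30 genes of smallest p, and all 7 were lower after amphetamine. The 97 genes together summed to 12906, 12725, 13390 and 12483 CPM in amphetamine KO mice, against 15447, 14726, 15735, 15176 and 14563 CPM in saline KO mice, so that the groups did not overlap. Of the 97, 83 had a log2 fold change below 0 (51.1% of all genes did), 41 (42.3%) had an unadjusted p under 0.05 in that direction and 3 in the other. For 28 (28.9%) every amphetamine mouse lay below every saline mouse, and for 0 every one lay above. Over all genes, 6% were lower and 6.09% higher at unadjusted p under 0.05, and 2.84% lay wholly below and 2.22% wholly above. These lists, like the others below, were chosen with earlier results of these data known. The shares therefore describe these mice and are not an independent test. None of the 97 passed the adjusted test by edgeR with all libraries in, while Hspa8 and Hsp90b1 passed by limma voom and without saline mouse 3. The median log2 fold change of the 97 was -0.18. Saline mouse 3 moved this value most: without it the median was -0.12, with 37 genes lower at unadjusted p under 0.05; without that mouse and amphetamine mice 2 and 3 together it was -0.14, again with 37 genes.

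In the cytosolic Hsp70 machinery, 23 of 25 genes were below 0, 9 at unadjusted p under 0.05, with a median of -0.17. Hspa8 (ENSMUSG00000015656.18, GRCm39 chromosome 9, 40712280 to 40721383), the constitutive Hsp70 that folds new proteins and uncoats clathrin vesicles, had 1335, 1306, 1375 and 1253 CPM in amphetamine KO mice, against 1756, 1678, 1653, 1691 and 1672 CPM in saline KO mice. Its log2 fold change was -0.36 ± 0.0624 (SE, adjusted p = 0.0648), and the lowest saline mouse stood above the highest amphetamine mouse. Hsph1, which frees Hsp70 from its nucleotide, had 261, 167, 242 and 243 CPM in amphetamine KO mice, against 404, 344, 289.8, 338 and 353 CPM in saline KO mice, with a log2 fold change of -0.60 ± 0.131 (adjusted p = 0.151). Dnaja1, a J-domain partner that delivers substrates, had 301, 302, 324 and 298 CPM in amphetamine KO mice, against 365, 369, 396, 364 and 328 CPM in saline KO mice. Dnaja1 lay lower in every amphetamine mouse, with a log2 fold change of -0.25 ± 0.0664 (adjusted p = 0.268). The groups did not overlap for Hspa8, Hsph1 and Dnaja1, nor for St13, an Hsp70 co-chaperone named after its values were seen. The stress-inducible partner Dnajb1 had 59.2, 57.1, 68.2 and 56.5 CPM in amphetamine KO mice, against 74.7, 71.5, 76.7, 71.1 and 66.6 CPM in saline KO mice, with overlap at the edge (-0.26 ± 0.0745). Hspa1a and Hspa1b, the strongly heat-inducible Hsp70 genes, named after their values were seen, are near-identical copies that can share reads and had log2 fold changes of -0.52 ± 0.191 and -0.43 ± 0.282, with overlapping groups. The single member with an unadjusted p under 0.05 in the other direction was Hspa2, an Hsp70 best known from testis, named for that reason after its values were seen, at 0.44; its highest value, 71.6 CPM, was in amphetamine mouse 3, without which it stood at 0.17.

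The Hsp90 machinery had 13 of 15 genes below 0, 11 of them at unadjusted p under 0.05 and 7 without overlap between groups, with a median of -0.27. Ahsa1, which speeds the ATPase of Hsp90, had 90.5, 86.8, 96.7 and 89.9 CPM in amphetamine KO mice, against 124, 113, 128, 122 and 109 CPM in saline KO mice. Stip1, the adaptor that hands clients from Hsp70 to Hsp90, had 172, 170.4, 169 and 164 CPM in amphetamine KO mice, against 248, 220.3, 218, 240.1 and 214 CPM in saline KO mice. Their log2 fold changes were -0.39 ± 0.0681 and -0.43 ± 0.0834 (SE, adjusted p = 0.0648 and 0.104), and neither gene had overlapping groups. Hsp90aa1, the inducible cytosolic Hsp90, had 1002, 923, 1096 and 948 CPM in amphetamine KO mice, against 1483, 1166, 1187, 1283 and 1161 CPM in saline KO mice. Fkbp4, a prolyl isomerase of steroid receptor complexes, had 116, 122, 116 and 116 CPM in amphetamine KO mice, against 142, 152, 178, 160.2 and 153 CPM in saline KO mice. Both lay lower in every amphetamine mouse (-0.34 ± 0.0836 and -0.42 ± 0.0994, adjusted p = 0.205 for each). On the scale per gene length of the deposited FPKM, Hspa8 was the most abundant of 4 main chaperones, at a level of 418 ± 17.8 FPKM in amphetamine KO mice and 533 ± 14.4 FPKM in saline KO mice (SD, n = 4 and 5). Hsp90aa1 followed at 303 ± 24.6 FPKM in amphetamine and 382 ± 42.5 FPKM in saline mice. Hsp90b1 had 114 ± 4.83 FPKM in amphetamine and 151 ± 7.39 FPKM in saline mice, and Hspa5 70.7 ± 4.99 FPKM in amphetamine and 89.5 ± 5.85 FPKM in saline mice.

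Chaperones of the endoplasmic reticulum had 24 of 27 genes below 0, 11 at unadjusted p under 0.05 and 10 without overlap, with a median of -0.16. Over all genes these shares were 51.1%, 6% and 2.84%. Hsp90b1 (ENSMUSG00000020048.14, GRCm39 chromosome 10, 86526704 to 86541373), the Hsp90 of that compartment, had 373, 368, 378 and 345 CPM in amphetamine KO mice, against 515, 478, 497, 502 and 456 CPM in saline KO mice. Calr, the calcium-binding lectin calreticulin, had 256, 208, 269.8 and 246 CPM in amphetamine KO mice, against 335, 326, 329, 323 and 311 CPM in saline KO mice. Hspa5, the Hsp70 of that compartment known as BiP, had 257, 273, 271 and 235 CPM in amphetamine KO mice, against 339, 332, 349.9, 334 and 293 CPM in saline KO mice. The groups were apart for all 3, which are the genes whose ER stress elements are printed above, with log2 fold changes of -0.42 ± 0.0706, -0.41 ± 0.0771 and -0.35 ± 0.0705 (SE) and adjusted p of 0.0648, 0.104 and 0.117. Of the other genes that held this element, Canx and Creld2 were without overlap, while Dnajc3, Ero1b and Pdia6 overlapped between groups. Sdf2l1, which keeps BiP clients soluble, had 7.85, 6.01, 7.12 and 8.14 CPM in amphetamine KO mice, against 12.8, 10.4, 12.8, 9.24 and 10.1 CPM in saline KO mice. Sdf2l1 lay lower in every amphetamine mouse, with a log2 fold change of -0.60 ± 0.146 (adjusted p = 0.205). The sensors and transcription factors of the unfolded protein response divided, with 10 of 18 below 0 and a median of -0.03. At unadjusted p under 0.05 1 of the 18 was lower, near the share of all genes (6%). That one was Xbp1, the factor spliced by the sensor Ire1, with 78.4, 75.5, 88.1 and 80.8 CPM in amphetamine KO mice, against 111, 91.5, 108, 83.1 and 87.8 CPM in saline KO mice. Its log2 fold change was -0.26 ± 0.0850 (adjusted p = 0.286), and the count does not separate its spliced form.

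**Figure D2:**
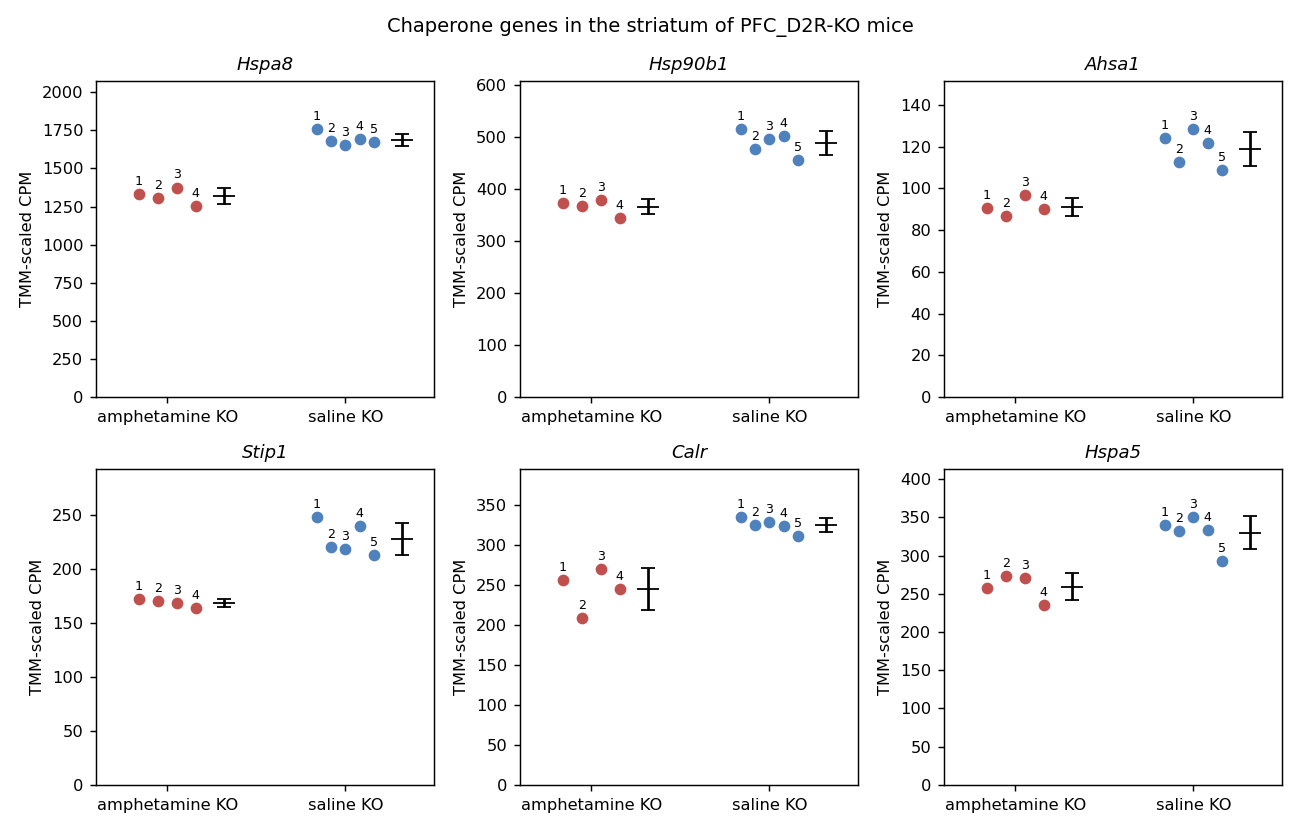
TMM-scaled CPM (vertical axis, from 0) of 6 chaperone genes in each amphetamine KO mouse (red, n = 4) and saline KO mouse (blue, n = 5), numbered by mouse; the bar is the mean ± SD. In each panel all amphetamine mice lie below all saline mice, for example Hspa8 at 1253 to 1375 CPM against 1653 to 1756 CPM.

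The TRiC chaperonin had 8 of 8 subunit genes below 0, 6 at unadjusted p under 0.05, with a median of -0.19. Without saline mouse 3, which had the highest TRiC sum, the median was -0.13 with 3 genes at unadjusted p under 0.05, and 3 genes were also counted without amphetamine mouse 4 and with only the 9 KO libraries. Cct3 had 128, 132, 124 and 120.4 CPM in amphetamine KO mice, against 143, 138, 188, 151 and 148 CPM in saline KO mice. Cct5 had 154, 165, 164 and 144 CPM in amphetamine KO mice, against 181, 168, 224, 178 and 171 CPM in saline KO mice. Both subunits lay lower in every amphetamine mouse (-0.28 ± 0.0829 and -0.23 ± 0.0818, adjusted p = 0.278 and 0.292). Without saline mouse 3 Cct5 stood at -0.15. Of 12 mitochondrial chaperones and proteases, 10 were below 0 and 2 reached an unadjusted p under 0.05, the partners Hspd1 and Hspe1 (Hsp60 and Hsp10), which share a promoter. Hspe1 had 54.5, 57.6, 53.6 and 53.4 CPM in amphetamine KO mice, against 70.1, 72.9, 104, 67.0 and 63.4 CPM in saline KO mice. Hspd1 had 191, 182, 193 and 177 CPM in amphetamine KO mice, against 221, 215, 248, 234 and 209 CPM in saline KO mice. Neither had overlapping groups (-0.46 ± 0.112 and -0.28 ± 0.0713, adjusted p = 0.205 and 0.243), and the list median was -0.06. Hspe1, whose highest value was in saline mouse 3, ran from -0.515 to -0.319 with 1 library left out. Small heat shock proteins and heat shock factors had 5 members on each side of 0; at unadjusted p under 0.05, 2 were below (Hspb1 and Cryab) and 2 above (Hspb7 and Hspb2). Hspb1, an actin-binding small heat shock protein, had 5.56, 5.82, 4.13 and 6.09 CPM in amphetamine KO mice, against 12.7, 8.54, 8.28, 6.21 and 7.03 CPM in saline KO mice. Hspb7, best known from muscle, ran from 0.153 to 0.379 CPM in amphetamine KO mice and 0.0536 to 0.161 CPM in saline KO mice. Proteasome subunits, which act with chaperones in protein turnover, had 29 of 32 members below 0 but 0 at unadjusted p under 0.05, with a median of -0.08 and of 0.03 without saline mouse 3.

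**Figure D3:**
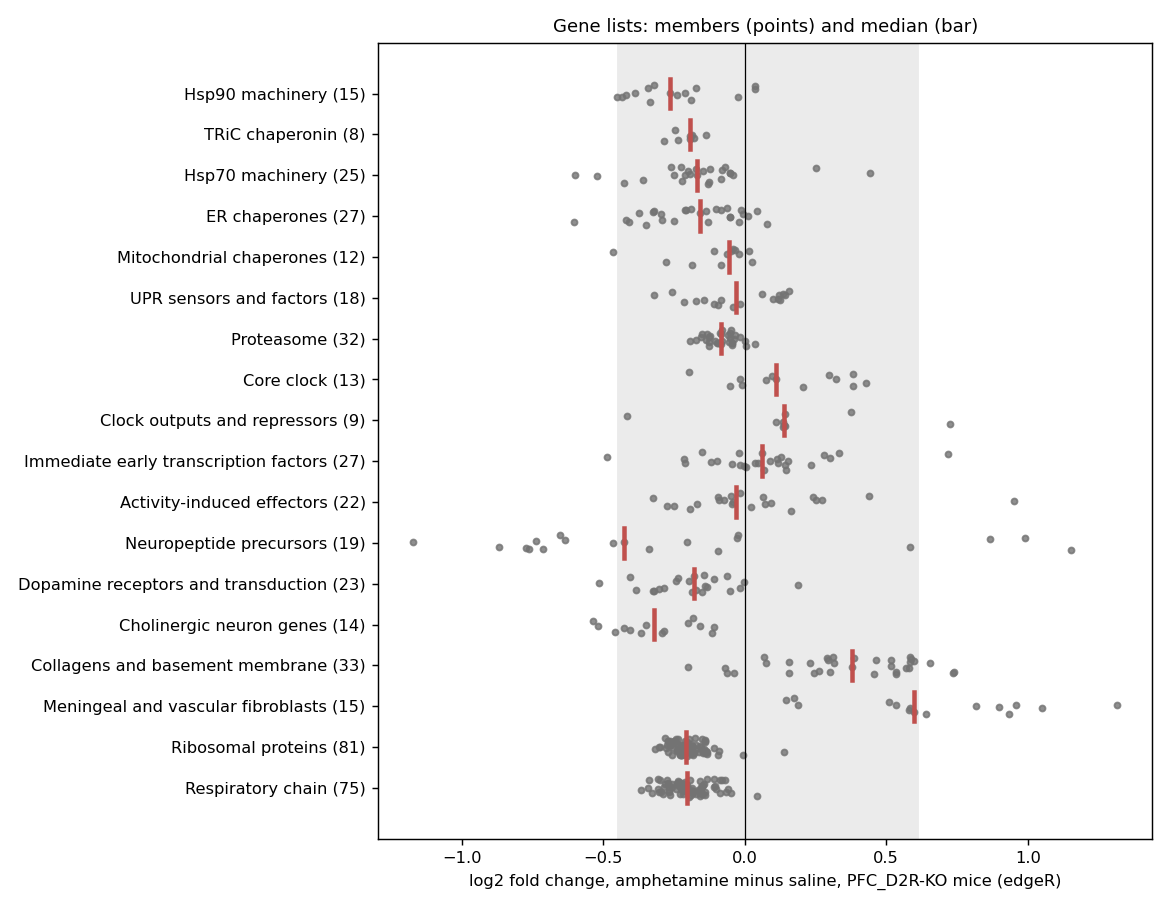
Log2 fold change of amphetamine against saline in KO mice (horizontal axis) for the members of 18 gene lists (points; number tested in brackets) with the list median (red bar); the grey band spans the 5th to 95th percentile of all 21513 genes (-0.45 to 0.61). The Hsp90, TRiC, Hsp70 and endoplasmic reticulum chaperone lists have medians from -0.27 to -0.16, and the fibroblast list, with 15 members above 0, one of 0.60.

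The same chaperones were set beside control mice given the same dose. In control mice 71 of the 97 were below 0, with a median of -0.07; 14 had an unadjusted p under 0.05 in that direction and 0 in the other. Of the 97, 64 were below 0 in both genotypes, and 70 were farther below 0 in KO mice than in control mice. Hspa8 had a log2 fold change of -0.36 ± 0.0624 in KO mice and -0.25 ± 0.0586 in control mice, and Hspa5 of -0.35 ± 0.0705 and -0.26 ± 0.0662. The test of the difference between genotypes gave Hspa8 an unadjusted p of 0.201 and Hspa5 one of 0.367. Ahsa1, Hsp90b1 and Hsph1 were at -0.13, -0.15 and -0.06 in control mice, with unadjusted interaction p of 0.0113, 0.0117 and 0.00716. These genes were named for a small p in KO mice, a choice that by itself favours a larger change there than in control mice. No chaperone passed that test after adjustment. Of the 97, 13 had an unadjusted p under 0.05 with a lower response in KO mice and 3 (the small heat shock genes Hspb2, Hspb7 and, named after its values were seen, Hspb6) with a higher one. Over all genes 1991 (9.25%) had such a p, 872 (4.05%) below 0 and 1119 (5.2%) above. A larger response in KO mice was thus not shown for any single chaperone after adjustment.

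**Figure D4:**
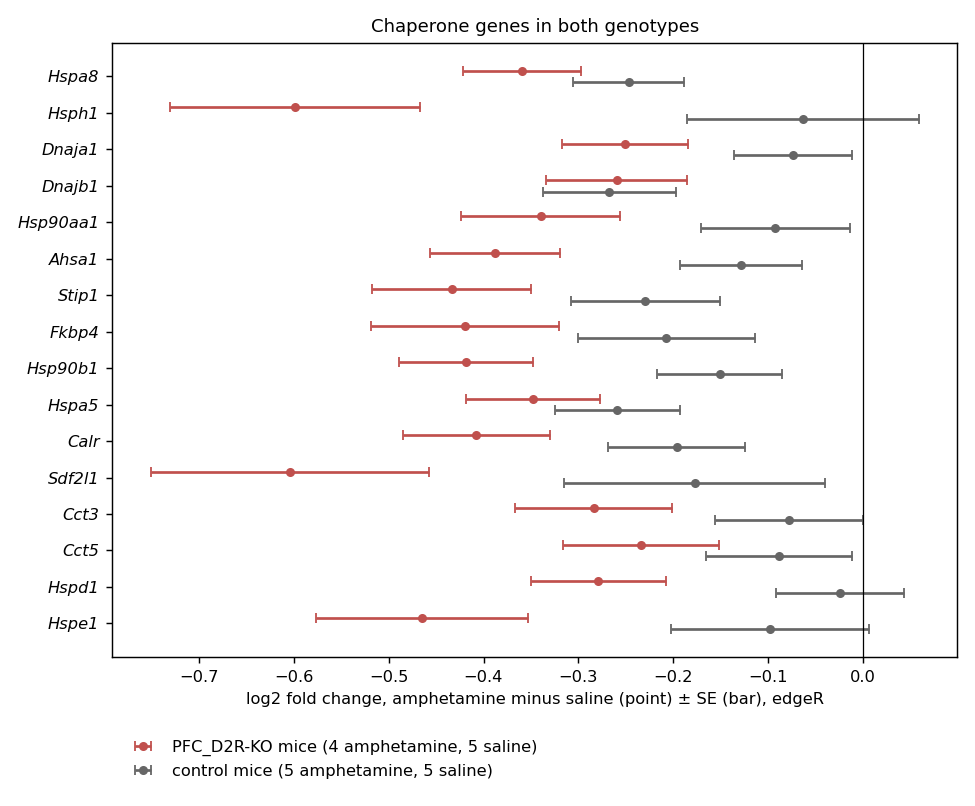
Log2 fold change of amphetamine against saline (horizontal axis; point, with SE as the bar) for 16 chaperone genes in KO mice (red, upper of each pair) and control mice (grey, lower). All 16 lie below 0 in both genotypes, from -0.60 to -0.23 in KO mice and from -0.27 to -0.02 in control mice. They were mostly named for a small p in KO mice, which favours larger changes there.

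Clock genes, whose products form a daily loop of activators and repressors, had medians above 0. Core clock genes had 9 of 13 members above 0, 2 at unadjusted p under 0.05, with a median of 0.11, and output and repressor genes 8 of 9, 2 at unadjusted p under 0.05, with a median of 0.14. At that p, 6.09% of all genes were higher. Per3 (ENSMUSG00000028957.13, GRCm39 chromosome 4, 151088109 to 151129122), a period repressor, had 47.5, 52.8, 42.0 and 50.4 CPM in amphetamine KO mice, against 37.2, 38.3, 31.9, 34.6 and 37.1 CPM in saline KO mice, with no overlap (0.43 ± 0.0878, adjusted p = 0.117). Ciart, a repressor of the activators Clock and Bmal1, had 18.8, 18.8, 14.5 and 21.1 CPM in amphetamine KO mice, against 11.5, 10.5, 12.5, 9.99 and 10.7 CPM in saline KO mice. Ciart lay higher in every amphetamine mouse, with a log2 fold change of 0.72 ± 0.282 (adjusted p = 0.338). Bhlhe40, which binds E-boxes as a repressor, had 73.3, 66.2, 74.8 and 76.3 CPM in amphetamine KO mice, against 54.2, 57.1, 54.8, 55.2 and 58.7 CPM in saline KO mice. Bhlhe40 lay higher in every amphetamine mouse, with a log2 fold change of 0.38 ± 0.106 (adjusted p = 0.278). Nfil3, which represses at D-boxes, ran the other way with 6.76, 5.34, 6.61 and 6.91 CPM in amphetamine KO mice, against 9.00, 8.03, 9.02, 8.37 and 8.32 CPM in saline KO mice. Nfil3 lay lower in every amphetamine mouse, with a log2 fold change of -0.42 ± 0.123 (adjusted p = 0.279). Per2, with 30.9, 28.7, 34.7 and 39.2 CPM in amphetamine KO mice, against 31.4, 25.9, 20.3, 24.5 and 26.1 CPM in saline KO mice, overlapped between groups (0.38 ± 0.179), as did Per1 (0.32 ± 0.204) and Dbp, a D-box activator (0.14 ± 0.159). In control mice Per3 stood at 0.24, Bhlhe40 at 0.25, Ciart at 0.33, Nfil3 at -0.33 and Dbp at 0.67, with unadjusted interaction p of 0.141, 0.397, 0.323, 0.608 and 0.0264.

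Neuropeptide precursors had 15 of 19 members below 0, 5 at unadjusted p under 0.05 (6% of all genes were lower at that p), and a median of -0.42. Crh (ENSMUSG00000049796.5, GRCm39 chromosome 3, 19747565 to 19749560), the precursor of corticotropin-releasing hormone, had 6.94, 7.56, 6.45 and 5.97 CPM in amphetamine KO mice, against 9.88, 9.03, 12.1, 11.3 and 10.6 CPM in saline KO mice. It was the one precursor of these 19 without overlap between groups, with a log2 fold change of -0.65 ± 0.129 (SE, adjusted p = 0.104). Control mice stood at -0.29, and edgeR gave an unadjusted interaction p of 0.04998. Nts, the neurotensin precursor, had 46.2, 43.9, 23.2 and 33.1 CPM in amphetamine KO mice, against 45.8, 64.7, 90.6, 59.2 and 52.0 CPM in saline KO mice. Nts overlapped between groups, with a log2 fold change of -0.77 ± 0.225. Cartpt, a peptide precursor known to respond to psychostimulants, had 30.1, 20.1, 21.0 and 28.2 CPM in amphetamine KO mice, against 18.0, 39.2, 79.3, 45.9 and 44.4 CPM in saline KO mice. Cartpt overlapped between groups, with a log2 fold change of -0.87 ± 0.286. Saline mouse 3 was the highest for both, and without it Cartpt stood at -0.57. Pdyn, the dynorphin precursor of direct-pathway neurons, had 125, 91.5, 41.7 and 107 CPM in amphetamine KO mice, against 123, 147, 189.9, 115 and 134 CPM in saline KO mice. Tac1, their substance P precursor, had 220.0, 144, 69.0 and 206 CPM in amphetamine KO mice, against 302, 251, 354, 172 and 229 CPM in saline KO mice. Pdyn and Tac1 had log2 fold changes of -0.64 and -0.71, and of -0.40 and -0.46 without amphetamine mouse 3. Their lowest values were in that mouse, which also had the least Drd1 RNA (53.7 CPM). The 1 precursor with an unadjusted p under 0.05 in the other direction was Cck, the cholecystokinin precursor of cortical neurons, named after its values were seen, with 34.9, 12.9, 124 and 53.0 CPM in amphetamine KO mice, against 19.6, 26.4, 15.0, 31.7 and 33.6 CPM in saline KO mice. Its highest value, in amphetamine mouse 3, moved with the cortical markers, whose part in it was not tested. The log2 fold change of Cck was 1.15, and 0.41 without that mouse. The list median was -0.24 without amphetamine mouse 4, -0.27 without saline mouse 4 and -0.27 without amphetamine mouse 1. The hypothalamic hormone genes Avp and Oxt, for vasopressin and oxytocin, lay lower in every amphetamine KO mouse. Avp had 8.71, 2.95, 2.497 and 0.558 CPM in amphetamine KO mice, against 14.9, 24.8, 27.0, 40.6 and 31.4 CPM in saline KO mice. The adjusted p was 0.363 for Avp and 0.437 for Oxt. Both belong to a list of 12 hypothalamic markers, of which 9 were below 0 and 3 above, with a median of -0.34. Of the 12, 1 was lower and 0 were higher at unadjusted p under 0.05. Summed hypothalamic markers (12, all detected, Avp and Oxt included) were 82.9, 120.2, 112 and 55.5 CPM in amphetamine KO mice, against 124, 128, 173, 210.3 and 159 CPM in saline KO mice. The part of hypothalamic content in the peptide values was not tested.

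**Figure D5:**
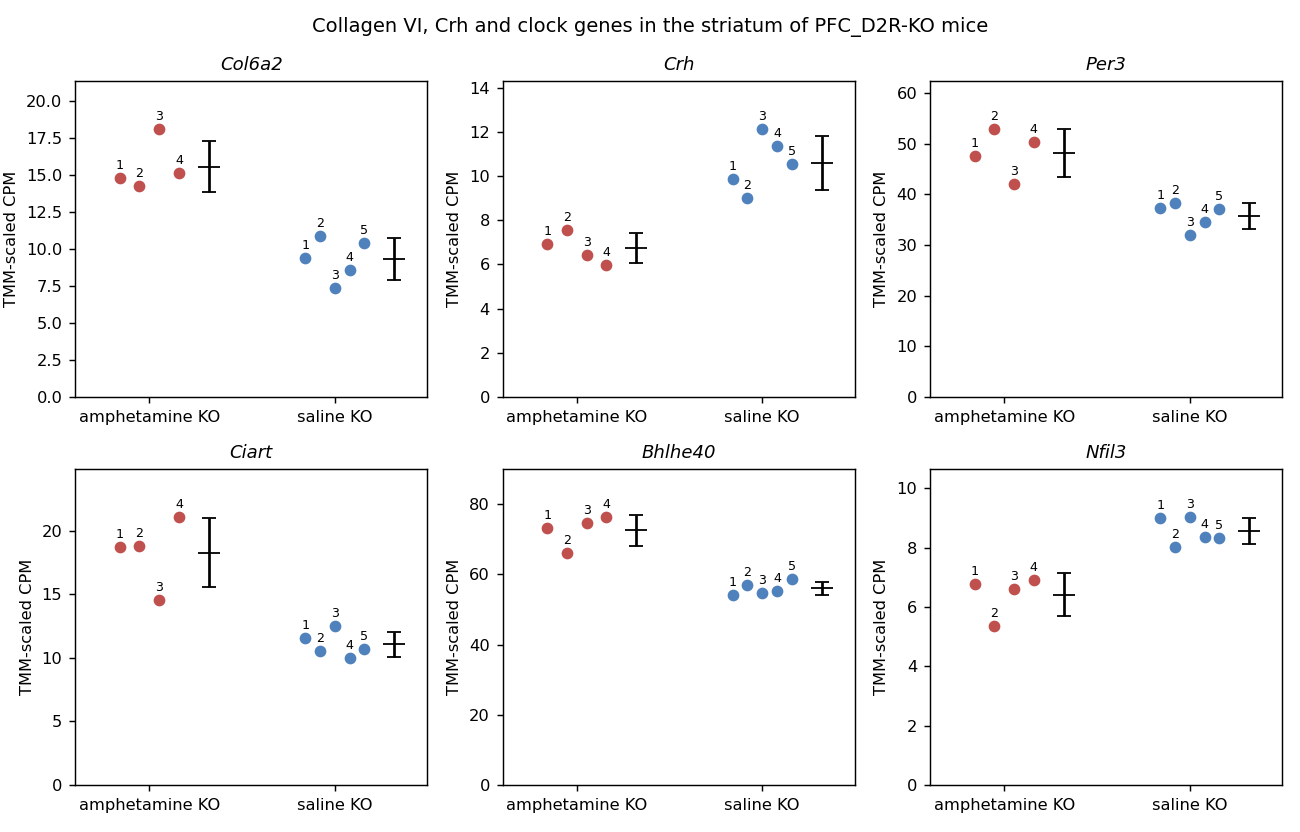
TMM-scaled CPM (vertical axis, from 0) of Col6a2, Crh and 4 clock genes in each amphetamine KO mouse (red, n = 4) and saline KO mouse (blue, n = 5), numbered by mouse, with the mean ± SD. The groups do not overlap in any panel, and Col6a2 (14.3 to 18.1 CPM against 7.38 to 10.9 CPM) is the one gene of the 6 that passed the adjusted test.

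Immediate early transcription factors, which neuronal activity induces, showed no common direction at 90 min, with 17 of 27 above 0 and a median of 0.06. At unadjusted p under 0.05, 2 were higher (Klf6 and Btg2) and 1 lower (Crem, a cyclic AMP response factor). Over all genes, 6.09% were higher and 6% lower at that p. Fos had 48.9, 28.6, 29.8 and 47.9 CPM in amphetamine KO mice, against 36.3, 29.9, 43.9, 38.5 and 40.8 CPM in saline KO mice. Egr1 had 172, 89.7, 107 and 204 CPM in amphetamine KO mice, against 130.1, 131, 129.9, 115 and 155 CPM in saline KO mice. Amphetamine mice 1 and 4 were the highest of all KO mice for Fos and Egr1 and amphetamine mice 2 and 3 the lowest, and the log2 fold changes were 0.03 ± 0.179 and 0.12 ± 0.212 (SE). Npas4, induced by calcium entry, stood at -0.12 ± 0.237, and Arc, which removes AMPA receptors from synapses, at -0.02 ± 0.295. Klf6, a zinc finger factor, had 43.0, 43.3, 59.2 and 47.4 CPM in amphetamine KO mice, against 42.0, 41.8, 39.5, 41.6 and 40.1 CPM in saline KO mice. The log2 fold change of Klf6 was 0.23 ± 0.107 (adjusted p = 0.4), and Btg2, an antiproliferative factor, stood at 0.28 ± 0.134. Klf6 stood at 0.12 without amphetamine mouse 3, its highest value, and Btg2 at 0.17 without amphetamine mouse 4. Without amphetamine mice 2 and 3 and saline mouse 3 the median of the factors was 0.26, with 6 higher and 0 lower at unadjusted p under 0.05. Without amphetamine mouse 2 alone it was 0.19 and without amphetamine mouse 4 alone -0.04. Activity-induced effector genes lay on both sides of 0, with 10 of 22 above 0 and a median of -0.03. At unadjusted p under 0.05, 1 was higher (the phosphatase gene Dusp1, 0.27 ± 0.119, 0.17 without amphetamine mouse 4) and 2 were lower (Rgs2 and the ADP-ribosyltransferase gene Tiparp, -0.28 ± 0.100). Without amphetamine mice 2 and 3 and saline mouse 3 the effector median was 0.16, with 18 of 22 above 0, 4 higher and 0 lower at unadjusted p under 0.05. Without amphetamine mouse 2 alone this median was 0.14. Rgs2, which shortens G protein signals, had 128, 111, 107 and 129 CPM in amphetamine KO mice, against 139, 146, 193, 130.1 and 137 CPM in saline KO mice. Every amphetamine mouse lay lower for it (log2 fold change -0.33 ± 0.130, adjusted p = 0.345). Without saline mouse 3 it was -0.21. In control mice Rgs2 stood at 0.28, and the unadjusted interaction p was 0.00289 (adjusted p = 0.519).

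Dopamine receptor and transduction genes had 22 of 23 members below 0, 2 at unadjusted p under 0.05 (Rgs2, above, and Prkar2b, a subunit of protein kinase A, at -0.29 ± 0.117), with a median of -0.18. At that p, 6% of all genes were lower. Drd1, which encodes the D1 receptor, had 163, 97.8, 53.7 and 162 CPM in amphetamine KO mice, against 165, 165, 181, 104 and 163 CPM in saline KO mice. Drd1 overlapped between groups, with a log2 fold change of -0.38 ± 0.243 (adjusted p = 0.523). Amphetamine mice 1 and 4 lay among the saline mice, and amphetamine mice 2 and 3 and saline mouse 4 lay under them. The 14 projection neuron markers shared by both pathways had 13 below 0 and a median of -0.20, which was -0.04 without amphetamine mouse 3 and 0.23 without the 3 libraries named above. For the dopamine list these values were -0.04 and 0.15. In control mice the medians were 0.36 for the dopamine list and 0.41 for the projection neuron markers. An unadjusted interaction p under 0.05, below 0, was found for 11 of 23 dopamine genes and 8 of the 14 markers. Over all genes this share was 4.05%, with 0 genes after adjustment. The part of the libraries that stand apart in this difference was not tested. Cholinergic neuron genes, which bear on the interneurons that make striatal acetylcholine, had 14 of 14 below 0, 1 at unadjusted p under 0.05, and a median of -0.32, against -0.05 without amphetamine mouse 3. Chat, the enzyme that makes acetylcholine, had 20.4, 24.8, 3.71 and 18.0 CPM in amphetamine KO mice, against 19.6, 20.04, 18.1, 19.9 and 18.4 CPM in saline KO mice. Chat had a log2 fold change of -0.20 ± 0.358 (adjusted p = 0.844), and the one low value was that of amphetamine mouse 3. The member at unadjusted p under 0.05 was Isl1, a factor of cholinergic and direct-pathway neurons, with 22.2, 21.0, 8.71 and 18.5 CPM in amphetamine KO mice, against 24.2, 25.8, 29.9, 25.4 and 22.4 CPM in saline KO mice, lower in every amphetamine mouse. Its log2 fold change was -0.54 ± 0.211, and -0.31 without amphetamine mouse 3.

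Collagen and basement membrane genes had 29 of 33 members above 0, 13 at unadjusted p under 0.05 and 0 in the other direction, 7 without overlap, and a median of 0.38. Over all genes, 6.09% were higher at that p and 2.22% had every amphetamine mouse above every saline mouse. Besides Col6a2, Col5a1, a fibril-forming collagen chain, had 5.62, 5.44, 5.92 and 5.89 CPM in amphetamine KO mice, against 3.71, 4.47, 1.88, 3.56 and 3.56 CPM in saline KO mice (0.73 ± 0.205, adjusted p = 0.278). Lama1, a laminin chain of basement membranes, had 5.24, 6.53, 5.62 and 4.39 CPM in amphetamine KO mice, against 4.28, 4.14, 2.21, 3.79 and 3.74 CPM in saline KO mice. Lama1 lay higher in every amphetamine mouse, with a log2 fold change of 0.58 ± 0.200 (adjusted p = 0.288). Saline mouse 3 was the lowest for both. With 1 library left out Col5a1 ran from 0.581 to 0.850 and Lama1 from 0.451 to 0.677. Col6a1, the collagen VI chain that pairs with Col6a2, had 75.9, 64.8, 50.2 and 80.7 CPM in amphetamine KO mice, against 53.4, 54.7, 51.1, 58.0 and 58.7 CPM in saline KO mice and overlapped (0.30 ± 0.158), as did Col6a3 (0.52 ± 0.284). Markers of meningeal and vascular fibroblasts, the cells that make these collagens, had 15 of 15 above 0, with a median of 0.60. Of these, 7 were at unadjusted p under 0.05 (6.09% of all genes) and 10 were without overlap (2.22% of all genes). Their summed level was 283, 266, 311 and 214 CPM in amphetamine KO mice, against 234, 203, 109, 205 and 167 CPM in saline KO mice, with 3 of the 4 amphetamine mice above every saline mouse. Dcn, the proteoglycan decorin, had 28.8, 30.1, 68.8 and 17.8 CPM in amphetamine KO mice, against 17.1, 16.9, 11.5, 16.8 and 10.6 CPM in saline KO mice. Its log2 fold change was 1.32 ± 0.397 (adjusted p = 0.282). Without amphetamine mouse 3, whose Dcn was the highest, it was 0.81. Bgn, the related biglycan, stood at 0.64 ± 0.228 and Col1a2, a collagen I chain, at 0.58 ± 0.228, all 3 without overlap. The fibroblast and collagen lists share members, and the part of fibroblast content in the collagen values, Col6a2 included, was not tested. Without the 3 libraries that stand apart, the collagen median was 0.22 with 5 genes at unadjusted p under 0.05, and the fibroblast median 0.60 with 0; without saline mouse 3 alone these were 0.28 with 9 and 0.45 with 3. In control mice the medians were -0.28 for collagens and -0.38 for fibroblast markers. Of the collagen genes, 17 of 33 and 7 of 15 fibroblast markers had an unadjusted interaction p under 0.05, all above 0, against 9.25% of all genes in either direction and 0 after adjustment. Col6a2 itself stood at -0.06 ± 0.102 in control mice, with an unadjusted interaction p of 2.68e-05 (adjusted p = 0.451), the smallest of all genes.

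The remaining genes of smallest p were of mixed function. Txnl4a, a protein of the U5 spliceosome particle, had 19.7, 18.2, 20.5 and 17.9 CPM in amphetamine KO mice, against 29.1, 23.8, 29.3, 23.8 and 26.3 CPM in saline KO mice. Txnl4a lay lower in every amphetamine mouse, with a log2 fold change of -0.47 ± 0.0840 (adjusted p = 0.0648). Zfp36l2, which binds AU-rich messages for decay, had 39.0, 37.6, 36.3 and 36.1 CPM in amphetamine KO mice, against 26.8, 30.0, 31.1, 28.3 and 31.4 CPM in saline KO mice. Zfp36l2 lay higher in every amphetamine mouse, with a log2 fold change of 0.34 ± 0.0652 (adjusted p = 0.104). Hnrnpc, a nuclear RNA-binding protein, had 209.5, 173, 222 and 196 CPM in amphetamine KO mice, against 303, 256, 294, 253 and 241 CPM in saline KO mice. Hnrnpc lay lower in every amphetamine mouse, with a log2 fold change of -0.43 ± 0.0931 (adjusted p = 0.15). Cpeb1, which regulates poly(A) tails of synaptic messages, had 40.3, 49.98, 51.1 and 39.4 CPM in amphetamine KO mice, against 30.8, 32.7, 33.2, 36.8 and 36.1 CPM in saline KO mice. Cpeb1 lay higher in every amphetamine mouse, with a log2 fold change of 0.41 ± 0.0889 (adjusted p = 0.15). Nrbp2, a pseudokinase, had 89.2, 101, 98.7 and 89.5 CPM in amphetamine KO mice, against 65.9, 73.7, 65.4, 78.9 and 77.7 CPM in saline KO mice. Nrbp2 lay higher in every amphetamine mouse, with a log2 fold change of 0.39 ± 0.0777 (adjusted p = 0.112). Nrbp2 in control mice stood at -0.11, with an unadjusted interaction p of 0.000163 by edgeR. Like Spaca6 below, it was named for a small p in KO mice, which favours a larger change there. Spaca6, known for its role in sperm fusion, had 10.9, 14.8, 10.3 and 11.9 CPM in amphetamine KO mice, against 6.98, 7.59, 7.83, 8.70 and 8.66 CPM in saline KO mice (0.59 ± 0.117; -0.13 in control mice). Rnpep, the aminopeptidase B gene, and Hexa, a subunit of a lysosomal hexosaminidase, lay lower in every amphetamine mouse (-0.57 ± 0.121 and -0.39 ± 0.0876). So did Ccdc190 (-0.54 ± 0.106) and the histone H3 gene H3c4 (-1.72 ± 0.357), which ran from 0.0829 to 0.362 CPM in amphetamine KO mice. Snapc4, a subunit of the complex that transcribes small nuclear RNAs, and Zfp46, a zinc finger gene, lay higher in every one (0.47 ± 0.0966 and 0.51 ± 0.1102). Ntn5, a netrin family gene, was the one gene of the 30 whose groups overlapped; amphetamine mouse 3 had 2.55 CPM and the other KO mice 0.0536 to 0.728 CPM. Its log2 fold change was 2.68, and 1.53 without that mouse. The 30 also held 7 genes annotated as non-coding or unconfirmed transcripts, Gm3764, Gm32444, Gm33228, Gm35608, Gm47765 and 9830166K06Rik with higher and 9630013A20Rik with lower values after amphetamine. The most abundant of these, Gm3764, had 51.6, 61.6, 47.5 and 51.6 CPM in amphetamine KO mice, against 37.3, 33.8, 37.8, 36.1 and 38.1 CPM in saline KO mice (0.54 ± 0.104, adjusted p = 0.104).

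Rbm3, an RNA-binding protein induced by cooling, had 103, 189.7, 111 and 116 CPM in amphetamine KO mice, against 26.8, 66.2, 120.0, 66.1 and 63.2 CPM in saline KO mice. The log2 fold change was 0.93 ± 0.321 (adjusted p = 0.294), and saline mouse 3 lay above 3 of the 4 amphetamine mice. The other members of its temperature-responsive list lay on both sides of 0. Srsf7, a splicing factor, had 135, 135, 127 and 128 CPM in amphetamine KO mice, against 158, 144, 185, 142 and 145 CPM in saline KO mice (-0.24 ± 0.0853). Glucocorticoid-induced genes had 12 of 14 below 0, 0 at unadjusted p under 0.05, and a median of -0.22, which was 0.09 without saline mouse 1, the mouse with the highest sum (1352 CPM against 557 to 820.4 CPM in the others). Mt2, a metallothionein, had 79.3, 92.5, 80.1 and 76.6 CPM in amphetamine KO mice, against 176, 81.2, 144, 113 and 95.7 CPM in saline KO mice (-0.57 ± 0.310), and Pdk4, a brake on glucose oxidation, stood at -0.44 ± 0.249. Without saline mouse 1, which had the most Pdk4, this was -0.10. Ribosomal protein genes had 80 of 81 and respiratory chain genes 74 of 75 below 0, with medians of -0.21 and -0.20; without saline mouse 3 these were -0.02 and -0.05. In the same setting the Hsp70, Hsp90 and endoplasmic reticulum chaperone medians were -0.13, -0.23 and -0.11.

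The genes at unadjusted p under 0.05 in KO mice were also read in control mice, which share no sample with them. Of the 1310 higher genes, 768 (58.6%) were above 0 in control mice, where 48.4% of all genes were, and 123 (9.39%) were higher there at unadjusted p under 0.05, as were 4.89% of all genes. Of the 1290 lower genes, 794 (61.6%) were below 0 in control mice, where 51.6% of all genes were, and 145 (11.2%) were lower there at unadjusted p under 0.05, as were 6.95% of all genes. Genes are not independent replicates, so these shares describe the 2 comparisons and were not tested.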

How the data were processed

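Striatal total RNA of each mouse was sequenced, 1 library per mouse. Per the submitters' processing notes, the authors' tools were FastQC 0.11.5, Trim Galore 0.5.0, STAR 2.6.0c, HTSeq 0.6.1p2, R 3.6.1 and DESeq2 1.26.0s on GRCm39; the deposited files hold read counts per gene. Strandedness and annotation version were not given in the sources used here. The authors' deposited FPKM tables gave levels per gene length (Spearman correlation with the counts 0.954 to 0.957 across genes) and the symbols of 22901 genes. A reference list of gene names, matched by gene ID, named 25913 more, and 778 of the 49592 have none.

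Counts were tested with edgeR 4.0.16 (R 4.3.3): TMM scaling, filterByExpr (minimum count 10), 4 group means over all 19 libraries, and a robust quasi-likelihood fit with Benjamini-Hochberg adjustment at 0.05. SE is the fold change divided by the root of F. The procedure was tested on simulated data. With 50 genes changed at each size, it called 8 at 1.25-fold, 33 at 1.5-fold, 44 at 2-fold and 50 at 3-fold. It also called 8 unchanged genes. DESeq2 1.42.0 and limma voom 3.58.1 were alternatives. P-values rest on a spread between mice estimated over all 19 libraries, control mice included, and not over the KO mice alone.

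Genes were named if called, among the 30 of smallest p, among the 4 of smallest p on one of 44 lists, or on a fixed list of 16; others are marked, and promoter genes are named for their motifs. Promoters are from RefSeq GRCm38.p6. The members and lists were chosen with earlier results of these data known. Naming by small p in KO mice favours larger changes there than in control mice, which bears on the interaction p of named genes.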

Additional observations from a re-analysis of the deposited data

Results flagged for a closer look

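Values in the 4 amphetamine KO mice and the 5 saline KO mice were screened for a mouse far from the rest of its group, over named genes in CPM and over list scores, the mean log2 CPM of a list. Of 284 values tested 35 stood out by the gap to the nearest mouse relative to the range (Dixon's 95% limit), where chance gives about 1 in 20. The mice were saline mouse 3 in 16 of these, amphetamine mouse 2 and saline mouse 1 in 6 each, saline mouse 4 in 4 and amphetamine mouse 3 in 3. Highest and lowest here refer to the mouse within its own group.

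In saline mouse 3 the chaperone genes Hspe1 (104.5 CPM), Cct3 (188.4 CPM) and Cct5 (224.5 CPM) and the signalling gene Rgs2 (192.6 CPM) were highest. Its Lama1 (2.211 CPM), Bmp4 (1.849 CPM) and Grin2b (110.5 CPM) were lowest. The scores of TRiC (7.864), mitochondrial chaperones (6.276), proteasome (7.034), ribosomal proteins (8.15), respiratory chain (6.91) and temperature-responsive genes (6.941) were highest there. Those of glutamate receptors (5.915), collagens (1.988) and oligodendrocyte precursors (4.279) were lowest.

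In amphetamine mouse 2, Ttr (595.5 CPM), Fkbp4 (122.3 CPM), Rbm3 (189.7 CPM), Col6a3 (10.45 CPM), Aldh1l1 (50.31 CPM) and the choroid plexus score (3.57) were highest. In amphetamine mouse 3, Dnaja1 (324 CPM) and Hspa2 (71.63 CPM) were highest, and the score of small heat shock proteins and factors was lowest (2.268). Saline mouse 1 was highest for Fkbp5 (113.2 CPM), Pdk4 (32.8 CPM), Rnpep (56.51 CPM), Hspa1a (10.08 CPM), C1qb (94.79 CPM) and the glucocorticoid score (6.243). Saline mouse 4 was lowest for Drd1 (103.5 CPM) and the striatal projection neuron score (7.641) and highest for Hspb7 (0.1611 CPM) and the interferon score (2.707).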

How the results depend on the processing

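Each value was recomputed with RLE scaling, no low-count filter, DESeq2, limma voom, only the 9 KO libraries, the 3 libraries that stand apart left out, a mouse number as a block, and each of the 9 KO libraries left out in turn. Of 748 recomputed list medians 737 moved by less than the spread between mice, and named genes kept direction and call in 1601 of 1666 recomputations. A median could change sign within that limit, as the dopamine median did, from -0.18 to 0.15 without the 3 libraries. Only Col6a2 was called with all libraries, so other named genes had no call to lose. Calls were lost in 9 recomputations, all of Col6a2, and directions turned in 17.

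Genes called numbered 98 with DESeq2 (52 higher, 46 lower), 3 with limma voom (Col6a2 higher, Hspa8 and Hsp90b1 as the 2 lower) and 0 with only the 9 KO libraries, against 1 with edgeR over all 19, where 2600 genes had an unadjusted p under 0.05. Leaving out 1 KO library gave 0 to 3 called genes, 0 to 1 higher and 0 to 2 lower, with 3 without saline mouse 3 (again Col6a2, Hspa8 and Hsp90b1). Without the 3 libraries that stand apart, 1 gene was called, higher after amphetamine and not Col6a2. In that setting 835 genes were higher and 629 lower at unadjusted p under 0.05. Fewer mice, and in the fit of 9 libraries fewer residual degrees of freedom, enter these settings.

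For the difference between genotypes, DESeq2 called 14 genes (12 above 0, 2 below), against 0 with edgeR. Genes above 0 at unadjusted p under 0.05 numbered 1755 with no filter and 502 without the 3 libraries, and genes below 0 numbered 238 without the 3 libraries and 575 to 1071 with 1 library left out, lowest without amphetamine mouse 2. The cause was not tested.

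The ER chaperone median ran from -0.172 to -0.114 with 1 library left out, highest without saline mouse 3. That of the unfolded protein response factors ran from -0.045 to 0.076, highest without amphetamine mouse 2.

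Some directions turned, all of genes that had not passed the adjusted test. Without the 3 libraries the log2 fold change was 0.26 for Npas4, 0.37 for Arc, 0.13 for Drd1, 0.19 for Drd2 and -0.37 for Ttr (5.94 with them, and 0.018 without amphetamine mouse 2 alone). With 1 library left out it ran from -0.10 to 0.16 for Fos, -0.31 to 0.034 for Npas4, -0.10 to 0.28 for Egr1, -0.26 to 0.16 for Arc, -0.45 to 0.13 for Chat (highest without amphetamine mouse 3) and -0.24 to 0.22 for Fkbp5 (highest without saline mouse 1).

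Mouse numbers were not taken to pair the groups, since not every pair correlated above 0.1. Deviations from the group means correlated at 0.074, -0.095, -0.068 and -0.221 for the title numbers and at 0.074, 0.141, 0.141 and 0.197 for the library code numbers, where 3 of 4 pairs were above 0.1 and 3 of 4 mice correlated best with their own number (1 of 4 for the title numbers). These are a hint from the data and not from the design. A block by either number called 0 genes (Col6a2 adjusted p = 0.261 by title and 0.092 by code), and with the code block Fos stood at -0.081.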

Other observations

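Several lists of other cell types and pathways were not described above, and none of their members passed the adjusted test. Cldn5, the tight junction protein claudin-5 of brain endothelium, had 31.3, 30.0, 25.2 and 27.4 CPM in amphetamine KO mice, against 41.8, 36.5, 55.5, 35.3 and 40.3 CPM in saline KO mice. Every amphetamine mouse lay lower, with a log2 fold change of -0.56 ± 0.149 (SE, adjusted p = 0.272), while 9 of the 12 endothelial and pericyte markers were below 0 with a median of -0.04. Aldh1l1, a folate enzyme that marks astrocytes, had 44.6, 50.3, 44.9 and 45.0 CPM in amphetamine KO mice, against 63.0, 51.4, 51.7, 56.4 and 59.4 CPM in saline KO mice. It lay lower in every amphetamine mouse as well (-0.29 ± 0.0922, adjusted p = 0.282), as 1 of 8 astrocyte markers below 0 out of 10, with a list median of -0.06. Bmp4, a growth factor of newly formed oligodendrocytes, had 4.27, 4.42, 4.09 and 4.81 CPM in amphetamine KO mice, against 2.92, 3.22, 1.85, 3.34 and 2.93 CPM in saline KO mice, higher in every amphetamine mouse (0.62 ± 0.230, adjusted p = 0.31). The oligodendrocyte precursor list around it had a median of -0.07 with 3 of 10 above 0.

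Microglial markers had 8 of 11 below 0, 4 of them at unadjusted p under 0.05 (6% of all genes were lower at that p), and a median of -0.09. C1qa and C1qb, chains of the complement starter C1q made by microglia, were highest in saline mouse 1. C1qa had 40.5, 30.0, 34.9 and 40.1 CPM in amphetamine KO mice, against 78.6, 41.7, 53.6, 36.9 and 36.1 CPM in saline KO mice, and the groups overlapped (-0.44 ± 0.170, adjusted p = 0.333). Without saline mouse 1 the number of microglial markers at unadjusted p under 0.05 was 1, as it was without amphetamine mouse 2, and C1qa stood at -0.21 without saline mouse 1. Vascular smooth muscle markers had 6 of 6 above 0 with a median of 0.69, none at unadjusted p under 0.05. Glutamate receptor genes had 14 of 22 above 0 and a median of 0.02; Grin2b, an NMDA receptor subunit, had 314, 192, 381 and 333 CPM in amphetamine KO mice, against 250.2, 272, 110.5, 241 and 248 CPM in saline KO mice, lowest in saline mouse 3 (0.44 ± 0.202, and 0.27 without that mouse). Cholesterol genes had 14 of 23 below 0 and a median of -0.04, and Cyp51, a sterol demethylase, stood at -0.26 ± 0.101. Scg2, the granin that is cut to secretoneurin, had 444, 572, 392 and 391 CPM in amphetamine KO mice, against 486, 549.7, 818, 643 and 546 CPM in saline KO mice (-0.44 ± 0.143, adjusted p = 0.284), with overlap between the groups and a log2 fold change of -0.45 in control mice.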
